A study of Rattus norvegicus with 6 samples.

Results

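Neuronal nicotinic acetylcholine receptor subunits were examined in the rat amygdala. They are the 9 genes with the rat symbols Chrna2, Chrna3, Chrna4, Chrna5, Chrna6, Chrna7, Chrnb2, Chrnb3 and Chrnb4. They were found by symbol, and 9 of 9 had a row among the 38445 genes counted. The rule itself uses names and no measured value.

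Nicotinic receptors are pentameric cation channels that open on binding acetylcholine or nicotine. In the brain the most common forms are the heteromer of α4 and β2, which has a high affinity for nicotine, and the homomer of α7, which is highly permeable to calcium. The α5 and β3 subunits do not form the classical agonist site and join receptors made by other subunits. The α3 and β4 subunits are typical of autonomic ganglia and the medial habenula, and α6 and β3 of midbrain dopamine neurons and their terminals. Cholinergic axons from the basal forebrain innervate the amygdala densely, and several of these receptors are known to respond to ethanol.

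The rats were adult male Sprague Dawley animals. Control rats received saline and Acute Ethanol rats received ethanol at 1 g/kg, both intraperitoneally, and the amygdala was collected 1 h later. RNA of 2 rats was pooled for each library, so 6 rats gave 3 libraries per group, and a value is an average over a pair of animals and over the nuclei dissected together (central, medial and basolateral). The mRNA libraries were strand specific and were read as single-end sequences of 100 nt. The comparison asks which subunit mRNAs differ at the time when this dose lowers anxiety-like behavior.

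The reads assigned to genes numbered 62576504 to 70755739 a library. Levels within 1 gene are given as CPM, the count as a share of these totals, and 3 counts equal 0.0424 to 0.0479 CPM, a floor that covers counting error only. CPM values were scaled between libraries by TMM (edgeR's trimmed mean of M values), with factors between 0.976 and 1.01. Neuronal markers were abundant in all libraries: the summed pan-neuronal list lay between 3962 and 5276 CPM, with 7 of its 8 genes tested, and Eno2 at 0 to 5 counts. The low Eno2 counts are not read as absence from the tissue, and their reason was not tested. The libraries differed in makeup. Choroid plexus epithelium markers summed to 512.5, 1109 and 887.3 CPM in control libraries 1 to 3 and to 11.8, 12.7 and 474.1 CPM in ethanol libraries 1 to 3, with Otx2 at or under 1 count (2-sided exact permutation test, n = 3 and 3, p = 0.1, the smallest p possible). Of the 7 tested genes of this list, 4 were lower at an edgeR unadjusted p below 0.05, as were 467 of all 18141 genes tested. The part of this signal in any subunit difference was not tested. In whole tissue, fewer cells of a type and less RNA per cell cannot be told apart.

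Transcripts of Chrnb2, Chrna7 and Chrna4 made up most of the subunit mRNA. Levels of different genes were compared per kilobase of the exonic length used for counting. Over the 6 libraries the mean was 20.6 CPM per kb for Chrnb2, 16.1 for Chrna7 and 12.3 for Chrna4, and these 3 genes together held 95.1% of the summed level of the 9. The other 6 genes ranged from 0.0950 CPM per kb for Chrna6 to 0.642 for Chrna5. Among all tested genes the levels per kb of Chrnb2, Chrna7 and Chrna4 lay at the percentiles 78.7, 73.6 and 67.8, and those of the 5 less abundant tested subunits at the percentiles 11.2 to 23.0.

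**Figure D1:**
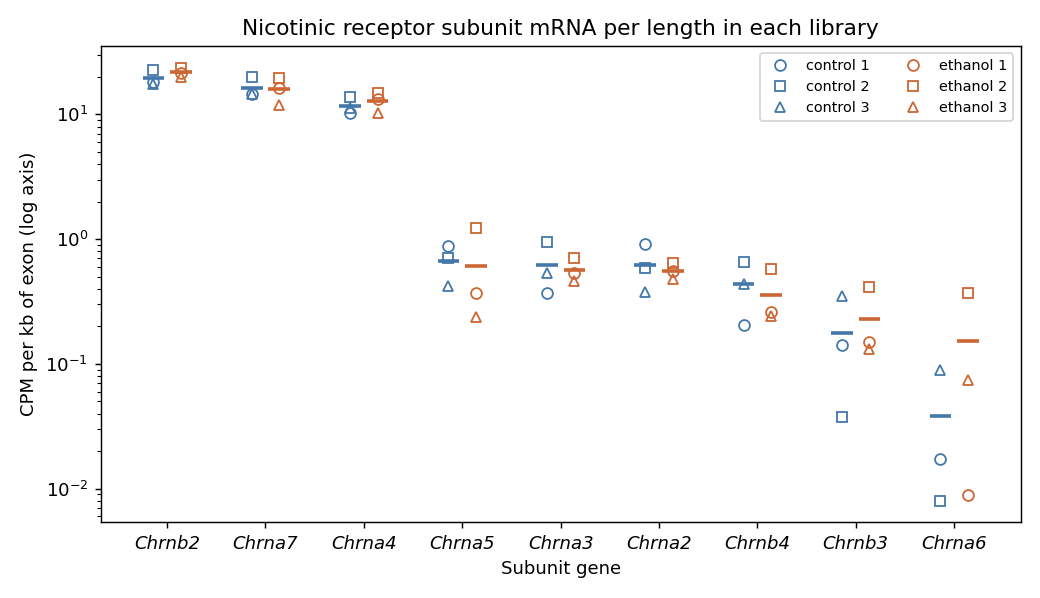
Level of each subunit gene in CPM per kb of exon (logarithmic axis), with 1 point for each of the 3 control (blue) and 3 ethanol (orange) libraries and a horizontal bar for each group mean. Chrnb2, Chrna7 and Chrna4 lay at 10.35 or above in every library, and the other 6 genes at 1.24 or below.

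Chrnb2 encodes β2, the partner of α4 in the high-affinity receptor. Its level was 18.3, 22.6 and 17.6 CPM per kb in the saline controls and 21.6, 23.8 and 19.8 in the ethanol libraries. Chrna7 encodes α7 and measured 14.6, 19.9 and 14.6 CPM per kb in the saline controls and 16.3, 19.7 and 11.9 in the ethanol libraries. Chrna4 encodes α4, which forms the agonist site with β2, and measured 10.4, 13.7 and 11.3 CPM per kb in the saline controls and 13.3, 14.9 and 10.4 in the ethanol libraries. Chrnb2 exceeded Chrna7 in 6 of 6 libraries (ratio of the means 1.28), and Chrna7 exceeded Chrna4 in 6 of 6 (1.31). The ranges over libraries overlapped for both pairs. The order of Chrnb2 and Chrna7 rests on the division by exonic length, which was 2198 nt for Chrnb2 and 5389 nt for Chrna7. By CPM alone Chrna7 was highest, with a mean of 86.95 against 45.29 for Chrnb2 and 26.23 for Chrna4. The step from Chrna4 to Chrna5 was 19.2-fold, and the lowest Chrna4 value, 10.4, lay above the highest Chrna5 value, 1.24.

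Among the low subunits the order was loose. Chrna5 averaged 0.642 CPM per kb, Chrna3 0.594 and Chrna2 0.592, but Chrna5 exceeded Chrna3 in only 2 of 6 libraries and Chrna3 exceeded Chrna2 in 3 of 6, so these neighbors did not differ beyond their spread. Chrna2 exceeded Chrnb4 (0.397) in 4 of 6 libraries. Chrnb4 exceeded Chrnb3 (0.204), and Chrnb3 exceeded Chrna6 (0.0950), in 6 of 6 libraries each, with overlapping ranges. Without the division by length, 5 of the 9 genes kept their rank.

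The 9 genes lie at 6 places in the Rnor_6.0 build, the positions being those of the deposited annotation. Chrna5 (chr8:59561817-59590172, plus strand), Chrna3 (chr8:59594007-59607122, minus strand) and Chrnb4 (chr8:59610489-59629073, minus strand) form 1 cluster, with 3834 bases between the first pair, 3366 bases between the second and 0 genes in between. Chrna6 (chr16:68860018-68866718, plus strand) and Chrnb3 (chr16:68876442-68913628, minus strand) are neighbors separated by 9723 bases. Chrna4 (chr3:176533182-176547965, minus strand), Chrnb2 (chr2:189088570-189096785, minus strand), Chrna7 (chr1:123897341-124039263, minus strand) and Chrna2 (chr15:42808897-42825179, plus strand) stand alone. The annotation lists 6 exon entries for 7 of the genes, 7 for Chrna2 and 21 for Chrna7, without merging entries that overlap. Of the counted bases, 0 are shared with another gene on either strand. Of these neighbors, Chrnb3 exceeded Chrna6 in every library, whereas Chrna5 and Chrna3 could not be ranked.

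The 250 bases before the transcription start of the 3 abundant subunits are shown because these genes supply most of the subunit mRNA. The sequences are RefSeq's, in the GRCr8 build, on the gene's own strand from 5′ to 3′, and capitals mark the GC box GGGCGG or its complement CCGCCC, the core letters recognized by SP-type factors. The windows are chr2:177487307-177487556 for Chrnb2, chr1:126249130-126249379 for Chrna7 and chr3:188534527-188534776 for Chrna4, all on the minus strand.
Chrnb2: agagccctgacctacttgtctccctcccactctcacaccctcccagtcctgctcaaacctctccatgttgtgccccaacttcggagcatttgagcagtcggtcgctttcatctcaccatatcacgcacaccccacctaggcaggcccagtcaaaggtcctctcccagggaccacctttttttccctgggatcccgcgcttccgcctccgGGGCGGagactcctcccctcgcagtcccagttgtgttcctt
Chrna7: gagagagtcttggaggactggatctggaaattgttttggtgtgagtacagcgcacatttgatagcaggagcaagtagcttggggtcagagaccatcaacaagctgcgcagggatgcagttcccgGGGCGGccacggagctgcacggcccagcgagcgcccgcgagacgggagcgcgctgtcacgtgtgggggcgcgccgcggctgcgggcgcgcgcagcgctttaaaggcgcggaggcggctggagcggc
Chrna4: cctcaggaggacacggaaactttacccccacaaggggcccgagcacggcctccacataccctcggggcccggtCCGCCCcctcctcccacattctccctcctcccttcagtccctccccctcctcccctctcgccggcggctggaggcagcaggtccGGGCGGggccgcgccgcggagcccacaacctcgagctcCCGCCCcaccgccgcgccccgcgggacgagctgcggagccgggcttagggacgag
Of the 9 genes, 6 had a promoter in the reference table. A GC box was found on either strand in 6 of these 6, against 30.5% of the 33469 promoters of the same length, with 1 match each in Chrnb2, Chrna7 and Chrnb4, 2 in Chrna3, 3 in Chrna4 and 4 in Chrna5. The GC content was 59.6% in Chrnb2, 66.0% in Chrna7 and 74.4% in Chrna4, and 62.0% to 70.4% in the other 3, above the median of 51.2% over all promoters. The cAMP response core TGACG was found in 0 of 6 (18.2% of all promoters) and the palindrome ACANNNTGT, of the glucocorticoid receptor type, in 0 of 6 (5.81%). The E-box CANNTG was found in 4 of 6 (65.5%). These matches are a description of the letters, and the abundant and the low subunits both carried GC boxes.

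Ethanol libraries and control libraries were compared for the 8 subunit genes that passed the filter on low counts, Chrna6 being too low to test. By edgeR's quasi-likelihood test, with p-values adjusted by Benjamini and Hochberg's method over all genes tested, 0 of the 8 had an adjusted p below 0.2, the study's threshold, and 0 of the 18141 genes tested (0%) did. At an unadjusted p below 0.05 there were also 0 of 8 subunits, against 4.15% of all genes tested. The same count of 0 subunits at an adjusted p below 0.2 was obtained with DESeq2, limma-voom and edgeR's likelihood ratio test. Over all 18141 genes these 3 methods gave 74, 0 and 77 genes. The paper reported differential genes at this threshold, by a test not given in the sources used here. The log2 fold changes of the 8 genes ran from -0.28 to 0.40 with a median of -0.08, 3 of them above 0 and 5 below, and the median over all genes tested was 0.01. In 0 of the 8 did the groups separate, where 3.66% of all genes tested were higher in every ethanol library and 5.19% lower.

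**Figure D2:**
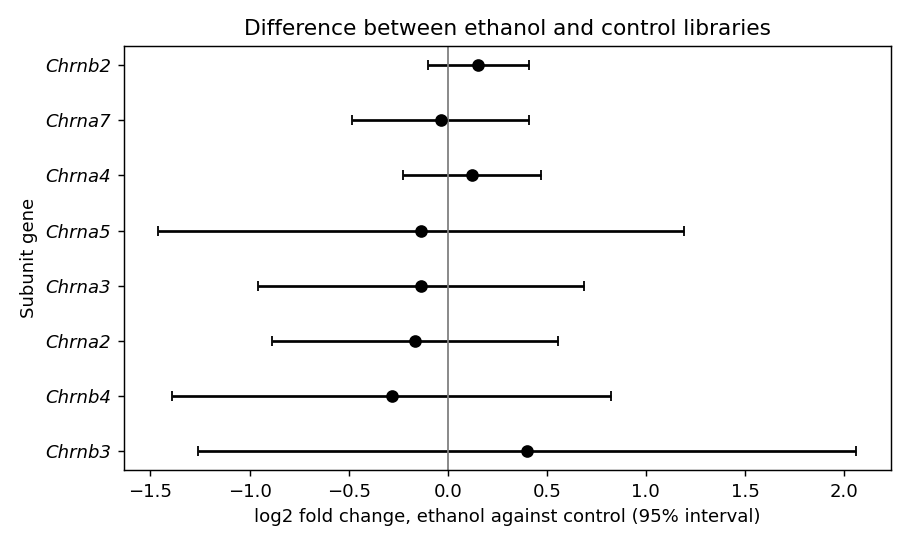
Log2 fold change of ethanol against control for the 8 tested subunit genes, ordered by level, with the 95% interval of the quasi-likelihood fit as a horizontal bar. Every interval includes 0, and the intervals of Chrnb2, Chrna4 and Chrna7 are narrower than those of the 5 less abundant genes.

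The high-affinity pair was measured most closely. Chrnb2 read 40.2, 49.7 and 38.6 CPM in the saline controls and 47.4, 52.2 and 43.6 CPM in the ethanol libraries. The lowest and the highest of the 6 libraries were a control and an ethanol library, but the groups overlapped. The means were 42.8 ± 6.00 and 47.7 ± 4.33 CPM (SD, n = 3 each), a log2 fold change of 0.16 with a standard error of 0.11 and a 95% interval from -0.10 to 0.41, which limits the fold to between 0.932 and 1.33 (edgeR unadjusted p = 0.199, adjusted p = 0.9999). Chrna4 read 22.05, 29.25 and 24.0 CPM in the saline controls and 28.37, 31.64 and 22.04 CPM in the ethanol libraries. Ethanol library 2 was the highest of all 6, and ethanol library 3 and control library 1 were lowest at nearly equal values, so the ethanol range enclosed the control range. The log2 fold change was 0.12 ± 0.15 (standard error), with an interval from -0.23 to 0.47 (edgeR unadjusted p = 0.44, adjusted p = 0.9999).

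Chrna7 gave 78.5, 107.1 and 78.4 CPM in the saline controls and 87.6, 106.1 and 64.0 CPM in the ethanol libraries. Replicate 2 was high in both groups and ethanol library 3 lowest. The means of 88.0 ± 16.5 and 85.9 ± 21.1 CPM (SD, n = 3 each) differed by -0.03 on the log2 scale, with an interval from -0.48 to 0.41, or 0.717-fold to 1.33-fold (edgeR unadjusted p = 0.861, adjusted p = 0.9999).

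The cluster of Chrna5, Chrna3 and Chrnb4 was low and variable. Chrna5, whose product is an accessory subunit that raises the calcium permeability of α4β2 receptors, had 174, 151 and 80 counts in the saline controls and 71, 239 and 50 in the ethanol libraries. Ethanol library 2 was the highest of the 6 and the other 2 ethanol libraries the lowest. The means were 2.02 ± 0.706 and 1.85 ± 1.63 CPM, and the log2 fold change of -0.13 had an interval from -1.46 to 1.20, 0.364-fold to 2.29-fold (edgeR unadjusted p = 0.823). Without ethanol library 2 it was -1.15, with an edgeR unadjusted p of 0.0149 and an adjusted p of 0.9999. Chrna3, the agonist-binding subunit of the ganglionic receptor, had 36, 102 and 51 counts in the saline controls and 52, 68 and 48 in the ethanol libraries. The ethanol values lay inside the control range, and the log2 fold change was -0.13 with an interval from -0.95 to 0.69. Chrnb4, the usual partner of α3, had 20, 70 and 41 counts in the saline controls and 25, 55 and 25 in the ethanol libraries, again inside the control range (log2 fold change -0.28, interval -1.39 to 0.83).

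Chrna2, a subunit of certain hippocampal and cortical interneurons, had 115, 81 and 46 counts in the saline controls and 69, 80 and 64 in the ethanol libraries. The control libraries spanned the ethanol ones, with means of 1.21 ± 0.520 and 1.08 ± 0.162 CPM and a log2 fold change of -0.16 (interval -0.89 to 0.56, edgeR unadjusted p = 0.611). For the tested low subunits each interval still contained a rise to 1.47-fold and a fall to 0.541-fold. Increases and decreases of this size were not excluded by these data.

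The pair of Chrna6 and Chrnb3 stood out by its spread between libraries. Chrna6, the α subunit of dopamine neuron receptors, had 2, 1 and 10 counts in the saline controls and 1, 42 and 9 in the ethanol libraries. Of its 65 counts, 42 came from ethanol library 2, where it reached 0.653 CPM. It was too low for a test over all 6 libraries. Chrnb3, its usual accessory partner, had 24, 7 and 58 counts in the saline controls and 25, 69 and 24 in the ethanol libraries. Its highest library, also ethanol 2, was 10.9-fold above its lowest, control 2. The log2 fold change was 0.40 with an interval from -1.26 to 2.06 (edgeR unadjusted p = 0.592), and without ethanol library 2 it was -0.31.

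Markers of midbrain dopamine neurons were also highest in ethanol library 2. Slc6a3, the dopamine transporter, had 1, 9 and 5 counts in the saline controls and 2, 290 and 4 in the ethanol libraries. Th, the rate-limiting enzyme of catecholamine synthesis, had 145, 105 and 101 counts in the saline controls and 82, 397 and 226 in the ethanol libraries, and Slc18a2, the vesicular monoamine transporter, 85, 96 and 153 and then 64, 382 and 155. The list of 6 such markers summed to 27.8 CPM in ethanol library 2 and to between 10.2 and 15.3 CPM in the other 5, and Pitx3 stayed at or under 9 counts throughout. Chrna6, Chrnb3 and Chrna5 were all highest in that library. So were Chrna4, Chrnb2 and the summed pan-neuronal, glutamatergic neuron and interneuron markers. Within the ethanol group that library was highest for 9 of 9 subunits and for 32.2% of the genes tested. The order of the other libraries differed between genes. After ethanol 2 came control 3 and ethanol 3 for Chrna6 and Slc18a2, control 3 and ethanol 1 for Chrnb3, control 1 and control 2 for Chrna5, ethanol 3 and control 1 for Th and En1, and control 2 and control 3 for Slc6a3. The part of dopamine neuron RNA in these subunit values was not tested.

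**Figure D3:**
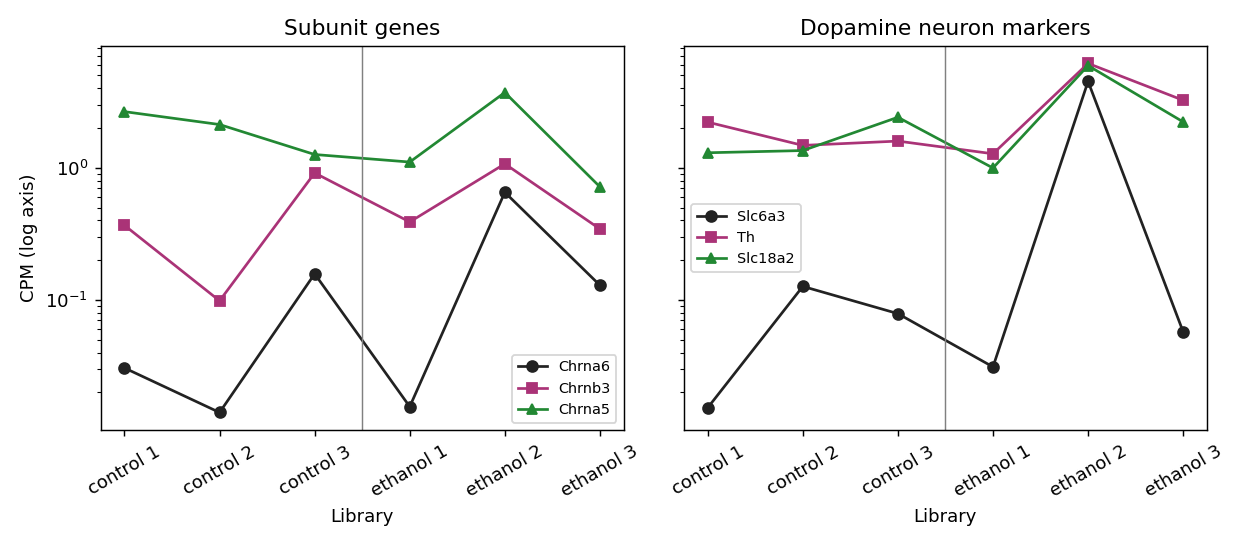
CPM (logarithmic axis) of Chrna6, Chrnb3 and Chrna5 on the left and of the dopamine neuron markers Slc6a3, Th and Slc18a2 on the right in each library, with a vertical line between control and ethanol libraries and lines joining the points of 1 gene only to guide the eye. All 6 genes were highest in ethanol library 2, where Slc6a3 reached 4.51 CPM.

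Ratios within a library cancel its depth, and 4 pairs of subunits that assemble or are often compared were examined per length. The ratio of Chrna4 to Chrnb2 was 0.567, 0.608 and 0.641 in the saline controls and 0.618, 0.626 and 0.522 in the ethanol libraries. It was the steadiest of the 4, with a coefficient of variation of 7.44% over the 6 libraries, and the groups overlapped (difference of the mean log2 ratio, ethanol minus control, -0.04, 2-sided exact permutation test, n = 3 and 3, p = 0.7). The ratio of Chrna7 to Chrnb2 was 0.797, 0.879 and 0.828 in the saline controls and 0.754, 0.829 and 0.599 in the ethanol libraries. The difference of -0.21 rested mostly on ethanol library 3 and was -0.08 without it (exact permutation p = 0.3 with all libraries). The ratio of Chrna5 to Chrna4 varied most, from 0.0231 in ethanol library 3 to 0.0854 in control library 1, with a coefficient of variation of 53.3% (difference -0.54, exact permutation p = 0.5). That difference was -1.12 without ethanol library 2, -0.19 without ethanol library 3 and -0.22 without control library 1. The ratio of Chrna3 to Chrnb4 lay between 1.23 and 2.06 (difference 0.20, exact permutation p = 0.6), and leaving out 1 library moved its difference between 0.05 (without ethanol library 1) and 0.43 (without ethanol library 2). The adjusted p over the 4 exact permutation tests was 0.7 for each, and 3 libraries against 3 cannot give a p below 0.1.

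Over the 6 libraries the highest level was 1.35-fold the lowest for Chrnb2, 1.44-fold for Chrna4, 1.67-fold for Chrna7 and 5.17-fold for Chrna5. Replicate 2 was the highest library in both groups for 5 of the 9 subunits (Chrna3, Chrna4, Chrna7, Chrnb2 and Chrnb4), which was true of 18.6% of the genes tested. Within the ethanol group, library 2 was highest for 9 of 9 subunits (32.2% of the genes tested) and library 3 lowest for 8 of 9 (38.1%).

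Neuronal marker sums also differed between libraries, and not all in the same way. Markers of amygdala and pallial glutamatergic neurons summed to 652.7, 1086 and 816.7 CPM in the saline controls and 988.3, 1258 and 583.2 CPM in the ethanol libraries. The order of the 6 libraries by this sum was the order by Chrna4 level, from ethanol 2, control 2 and ethanol 1 down to control 3, control 1 and ethanol 3, the last 2 nearly equal for Chrna4. For Chrna7 and Chrnb2 the same 3 libraries were the highest. The pan-neuronal sum was 4303, 4635 and 4024 CPM in the saline controls and 4782, 5276 and 3962 CPM in the ethanol libraries. When the libraries were scaled to that sum, the log2 fold change was 0.05 for Chrnb2, 0.01 for Chrna4 and -0.16 for Chrna7, with the median of all genes shifted to -0.09. Markers of central amygdala and striatal-type GABA neurons ran another way, with 1132, 844.5 and 867.9 CPM in controls 1 to 3 and 1062, 864.8 and 1031 CPM in ethanol libraries 1 to 3. Their lowest library was control 2 and their highest control 1, whereas Chrnb2, Chrna4 and Chrna7 were high in control 2 and ethanol 2. The part of tissue makeup in the subunit levels was not tested.

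**Figure D4:**
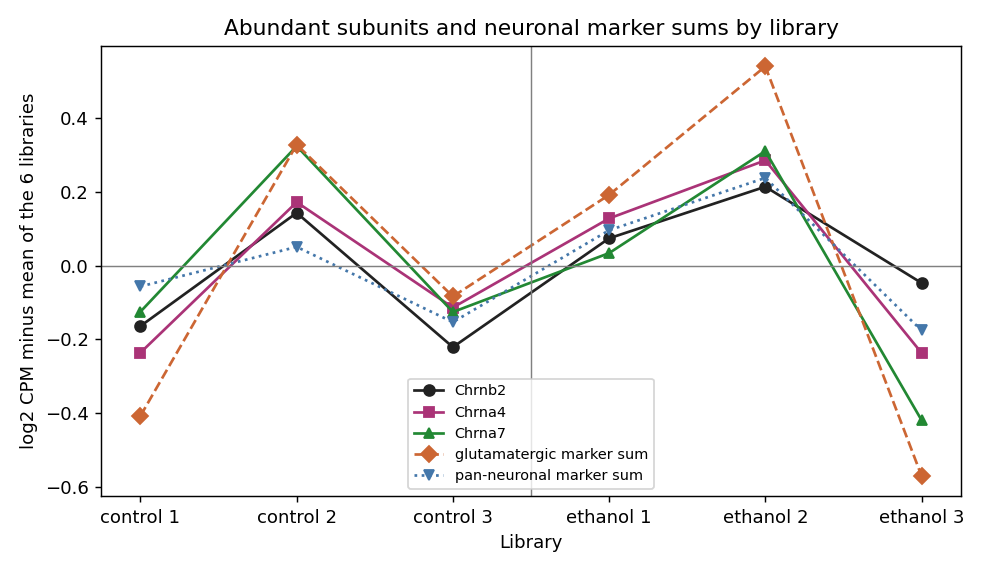
Log2 CPM of Chrnb2, Chrna4 and Chrna7 (solid lines) and of the summed glutamatergic (dashed) and pan-neuronal (dotted) markers, each as the difference from its own mean over the 6 libraries, with a vertical line between control and ethanol libraries. All 5 profiles peaked in ethanol library 2 or, for Chrna7, in control library 2, and glutamatergic markers had the widest range, 583.2 to 1258 CPM.

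Other cell groups known for particular subunits were read by their markers. Medial habenula markers, of interest for Chrna3, Chrnb4 and Chrna5, summed to 39.6 to 70.4 CPM, of which Tac1 alone gave 32.8 to 61.3 CPM. Only 3 of 5 were high enough to test, and the defining genes Pou4f1 and Gpr151 were near 0. The sum is therefore not read as a measure of habenula tissue. Markers of cholinergic neurons of the basal forebrain summed to 50.9 CPM in control library 1 and 29.1 CPM in ethanol library 3, against 9.22 to 14.0 CPM in the other 4. Chrna2 was highest in control library 1, followed by ethanol 2 and control 2, and was second lowest in ethanol library 3. Interneuron markers summed to 379.3 to 466.3 CPM, with Npy at 0 counts in all libraries, and microglial markers to 238.6 to 278.5 CPM. The interneuron sum and Chrna2 were both lowest in control 3 and next lowest in ethanol 3, and the order of the other libraries differed. The part of these cell groups in the Chrna2 level was not tested. The paper cites earlier work on Npy expression in the amygdala, so its counts of 0 are not read as absence. The reason for them was not tested.

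The genes whose profile over the 6 libraries was most like those of the most abundant subunits by CPM were picked by Pearson's r among 14759 genes. For Chrna7 they were Megf11 (r = 0.997), Kcnt2 (0.996) and the gene with NCBI identifier 680448, which had no symbol (0.995). Kcnt2, a sodium-activated potassium channel, read 17.0, 21.9 and 17.6 CPM in the saline controls and 18.4, 21.9 and 14.4 CPM in the ethanol libraries. For Chrnb2 they were Usp5, a deubiquitinase (r = 0.996), Slc27a4, a fatty acid transport protein (0.994), and Dmwd (0.992). Between subunits, r was 0.908 for Chrna7 and Chrna4, 0.876 for Chrnb2 and Chrna4 and 0.740 for Chrna7 and Chrnb2. The low subunit Chrna5 gave 0.733 with Chrna7 and 0.379 with Chrnb2, and Chrna2 gave 0.275 and 0.202. These values describe 6 libraries that share depth and tissue makeup, and no test was made of them. For the genes picked out of 14759, r is high also because they were selected by it.

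The remaining nicotinic subunits, of the muscle and hair cell receptors, were near the limit of detection or low. Of 7 such genes, 4 passed the filter and 0 had an adjusted p below 0.2, with a median log2 fold change of -0.09. An unadjusted p below 0.05 was found for 0 of them, against 4.15% of all genes tested. Chrne, the ε subunit of the adult muscle receptor, was highest at 1.95 ± 0.238 CPM in the control and 1.71 ± 0.139 CPM in the ethanol libraries (log2 fold change -0.19). Chrnb1, the muscle β subunit, had a log2 fold change of -0.22 and Chrna10, of hair cells, 0.01, and Chrna9, its partner, had at most 5 counts in any library.

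Chaperones and accessory proteins help set how many receptors reach the membrane and how they open. Of 10 such genes, 9 were tested and 0 had an adjusted p below 0.2, with a median log2 fold change of -0.01. At an unadjusted p below 0.05, 1 of the 9 was lower, where 4.15% of all genes tested were higher or lower. That gene was Rapsn, which clusters the muscle receptor, with 29, 32 and 35 counts in the saline controls and 19, 16 and 28 in the ethanol libraries. Its groups did not overlap, and 5.19% of all genes tested were likewise lower in every ethanol library. The log2 fold change of Rapsn was -0.60 with an interval from -1.19 to -0.01 (edgeR's quasi-likelihood test, unadjusted p = 0.0466, adjusted p = 0.9999 with Benjamini-Hochberg adjustment). The GPI-anchored modulators Ly6h and Lynx1 and the α7 chaperone Tmem35a (NACHO) were the highest of the list, with log2 fold changes of 0.00, 0.13 and -0.01. Ric3, another α7 chaperone, measured 68.2 ± 2.27 CPM in the control and 70.0 ± 3.36 CPM in the ethanol libraries, a log2 fold change of 0.04 with an interval from -0.10 to 0.18. The chaperone Ric3 therefore had a narrower interval than its client Chrna7.

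Genes that make, load and break down acetylcholine gave 0 of 7 at an adjusted p below 0.2, with a median log2 fold change of -0.10. An unadjusted p below 0.05 was found for 0 of 7, against 4.15% of all genes tested. Ache, which hydrolyzes acetylcholine, measured 69.1 ± 12.1 and 73.7 ± 4.29 CPM, a log2 fold change of 0.09. Prima1, its membrane anchor, had a log2 fold change of -0.10. Slc5a7, the choline transporter of cholinergic neurons, read 21.7, 5.28 and 6.42 CPM in the saline controls and 6.98, 5.72 and 12.1 CPM in the ethanol libraries, with control library 1 and ethanol library 3 apart from the rest (log2 fold change -0.43). Chat, which synthesizes acetylcholine, showed the same libraries apart, with 520 counts in control 1 and 300 in ethanol 3 against 18 to 81 in the other 4. These are also the libraries with the lowest glutamatergic marker sums, and Chrna4 was lowest in them. Oligodendrocyte markers were highest in the same pair, at 7234 CPM in control 1 and 8182 CPM in ethanol 3 against 3138 to 5284 CPM in the other 4. The thalamus marker sum was also highest in the pair, at 150.7 and 174.8 CPM against 110.9 to 147.7 CPM. In the sum the pair did not stand apart, as ethanol 1, at 147.7 CPM, was close to control 1. The list's most abundant gene, Slc17a6, measured 114.1 CPM in ethanol 1 and 107.3 CPM in control 1. Tcf7l2 was highest in the pair, at 18.47 and 14.65 CPM against 9.12 to 12.33 CPM. So was Gbx2, at 0.856 and 0.373 CPM against 0.0422 to 0.205 CPM, whereas Slc17a6, Rora and Lef1 did not set the pair apart. The part of these cells in the subunit levels was not tested.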

How the data were processed

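RNA-seq was carried out on amygdala RNA from 3 Control and 3 Acute Ethanol libraries. Per the labels and file headers, the authors aligned single-end reads with STAR 2.7.0f and deposited raw counts per gene from featureCounts (Subread 1.6.3), counted on the reverse strand over the exons of the Rnor_6.0 annotation without reads that mapped to several places or overlapped several genes. The test used in the study for RNA-seq is not given in the sources used here. Symbols were matched to 29322 of 38445 gene identifiers through a RefSeq table.

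Group differences were fitted to these counts by edgeR 4.0.16 in R 4.3.3 (filterByExpr at its minimum of 10 counts and 15 in total, TMM, quasi-likelihood test, Benjamini-Hochberg adjustment over 18141 genes, threshold 0.2). Standard errors and 95% intervals come from that fit. P-values measure the spread between pools of rats. Promoter letters are from GRCr8, which is not the build of the counts. Alternatives were DESeq2 1.42.0, limma 3.58.1 voom, other scalings, no filter, a replicate block and leaving out each library. The named genes were all 9 subunits, from each list of related genes those with an unadjusted p below 0.05 and the 3 with the highest mean CPM, and the 3 genes most like each of the 2 most abundant subunits. Ric3, Chat, Chrna9, the dopamine neuron and thalamus markers and the marker genes Eno2, Otx2, Npy, Pou4f1, Gpr151 and Tac1 were named in addition, after their values were seen. The subunits and lists were chosen with earlier results of these data known. Simulated data were used to test the scripts.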

Additional observations from a re-analysis of the deposited data

How the results depend on the processing

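The count of 0 subunits at an adjusted p below 0.2 held under the 8 alternatives that keep all libraries and the 6 that leave out 1. At an unadjusted p below 0.05 the count was 0, and leaving out 1 library gave 0 to 1. The single gene was Chrnb2 without control 2 (log2 fold change 0.28, edgeR unadjusted p = 0.0193, with 3.75% of all genes tested below 0.05 there), Chrna5 without ethanol 2 (-1.15, 0.0149, 3.16%), or Chrna6 without ethanol 1, when it passed the filter (2.53, 0.0321, 3.57%). Of 112 alternative log2 fold changes, 10 changed sign, each with 1 library left out. The ranges were -0.42 to 0.20 for Chrna2, -0.41 to 0.33 for Chrna3, -1.15 to 0.26 for Chrna5, -0.21 to 0.14 for Chrna7, -0.31 to 1.38 for Chrnb3 and -0.79 to 0.17 for Chrnb4. Chrna4 (0.01 to 0.26) and Chrnb2 (0.09 to 0.28) stayed above 0. Both groups carry the replicate numbers 1 to 3 from different rats. Same-numbered libraries deviated together by r = 0.0264, 0.388 and 0.211 over 14241 genes, and control 1 went with ethanol 3 by 0.305, so the numbers were not taken to pair the libraries. With the replicate block, 1 subunit, Chrnb2, had an unadjusted p below 0.05 (0.16, edgeR unadjusted p = 0.0323, adjusted p = 0.83), and so did 5.6% of all genes tested. Over all genes, 0 had an adjusted p below 0.2 with the quasi-likelihood test, with voom and with the block, against 77 with the likelihood ratio test, 74 with DESeq2, 83 without ethanol 3 and 4 without ethanol 1. Genes with an unadjusted p below 0.05 numbered 752, and 1629 without ethanol 3 and 437 with scaling to pan-neuronal markers. The cause was not tested. The number of libraries, 3 per group, and for Chrna6 the depth limit the precision.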
